A study of Homo sapiens with 2 samples.

Results

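The WNT, R-spondin and BMP signals of the cortical hem were followed here through brain organoids as 10 of the 62704 genes counted in each library. They were taken as a named list and matched by gene symbol: the WNT ligands WNT2B, WNT3A, WNT5A and WNT8B, the R-spondins RSPO1, RSPO2 and RSPO3, the transcription factor LMX1A, and the BMP ligands BMP6 and BMP7. All 10 were found and counted in both libraries, and no member was dropped by a filter.

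The organoids came from 1 human embryonic stem cell line, H9, and were profiled by split-pool barcoding (Evercode, Parse Biosciences), in which fixed cells or nuclei are labelled well by well before they are pooled. The cells library pooled unperturbed cerebral organoids (CO) of days 45, 55 and 70, organoids that were taken apart at day 45 and allowed to reaggregate (DISS), collected at days 48, 55 and 70, and organoids held in agarose (CONS), collected at day 55. The nuclei library is labelled as a control experiment and held nuclei from whole organoids, flash frozen at day 45, and from organoids taken apart on that day, while its treatment label also lists embedded organoids. The COs were made with the STEMdiff Cerebral Organoid Kit, which adds no patterning molecules, and the labels list no engineered allele for any group.

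Every barcode carried the same sample name in the deposited tables, so no cell or nucleus could be assigned to CO, DISS or CONS, to a day or to an organoid. Each library therefore stood as 1 sample. No test between conditions was possible, barcodes were not treated as replicates, and the values below are descriptions whose intervals (95%, exact) cover counting error only. The wells of the first barcoding round, 48 for cells and 12 for nuclei, hold samples of unlabelled condition and are given as ranges.

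The cortical hem lies at the medial edge of the developing forebrain, between the future hippocampus and the choroid plexus, and works as a signalling centre. WNT ligands bind Frizzled and LRP receptors and stabilise beta-catenin, R-spondins raise this response by binding LGR receptors and removing the ubiquitin ligases that clear Frizzled from the membrane, and BMP ligands act through SMAD proteins to set dorsal midline and choroid plexus fates. LMX1A marks the hem and roof plate in vertebrate embryos, and Cajal-Retzius cells, early neurons that secrete reelin, arise in part from the hem.

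Upstream sequences are shown for LMX1A, because over 70% of its transcripts lay in the clusters described below in both libraries, and for WNT8B, RSPO1 and RSPO3, because the co-detection of each pair of these 3 is described below. Each line gives the 250 bases before the annotated start, 5′ to 3′ on the gene's own strand, from RefSeq on GRCh38.p14. The letters TAATTA, the core of sites bound by LIM-homeodomain proteins such as LMX1A, are in capitals wherever they occur.
WNT8B, chr10:100462759-100463008, plus strand: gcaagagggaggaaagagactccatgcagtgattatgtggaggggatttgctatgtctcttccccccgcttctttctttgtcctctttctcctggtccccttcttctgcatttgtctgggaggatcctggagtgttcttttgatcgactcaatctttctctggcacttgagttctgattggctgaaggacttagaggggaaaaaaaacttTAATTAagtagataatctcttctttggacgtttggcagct
RSPO1, chr1:37634893-37635142, minus strand: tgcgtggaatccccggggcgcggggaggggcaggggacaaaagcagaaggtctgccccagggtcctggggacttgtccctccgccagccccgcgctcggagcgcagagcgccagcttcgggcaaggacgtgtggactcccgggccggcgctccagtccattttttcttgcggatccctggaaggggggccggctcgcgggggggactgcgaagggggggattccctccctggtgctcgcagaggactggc
RSPO3, chr6:127118421-127118670, plus strand: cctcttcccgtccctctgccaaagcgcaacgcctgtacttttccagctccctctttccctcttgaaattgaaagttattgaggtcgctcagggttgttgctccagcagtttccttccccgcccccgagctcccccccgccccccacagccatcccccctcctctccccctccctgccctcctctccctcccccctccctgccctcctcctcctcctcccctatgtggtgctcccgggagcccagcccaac
LMX1A, chr1:165356716-165356965, minus strand: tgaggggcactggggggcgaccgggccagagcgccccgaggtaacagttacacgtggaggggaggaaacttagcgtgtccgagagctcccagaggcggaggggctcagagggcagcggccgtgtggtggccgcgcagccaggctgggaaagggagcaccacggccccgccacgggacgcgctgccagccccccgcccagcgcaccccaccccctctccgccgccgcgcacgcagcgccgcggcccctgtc

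The WNT8B window stood apart from the other 3 in base composition, with 45.2% G and C against 70.8% for RSPO1, 64.8% for RSPO3 and 75.2% for LMX1A. Over all 35116 windows of the same length the median was 58%. Among the 8 members with a window, TAATTA occurred before WNT8B and WNT5A, and 4.35% of all windows hold it on either strand. The TCF/LEF-type letters CTTTGAT or CTTTGAA, searched on both strands, were in no member window and in 5.94% of all windows. GGCGCC, a SMAD-type motif, occurred before WNT3A only among the members, against 16.4% of all windows. These are matches of letters in short windows and describe no binding. RSPO2 and BMP7 had no window in the table.

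In the GENCODE annotation on GRCh38, RSPO1 (ENSG00000169218) lies at chr1:37611350-37634892, WNT8B (ENSG00000075290) at chr10:100463009-100483744, RSPO3 (ENSG00000146374) at chr6:127118671-127199481 and LMX1A (ENSG00000162761) at chr1:165201867-165356715. The other members span 24825 bases (WNT5A) to 184327 bases (RSPO2). Genes annotated on the opposite strand overlap several members, and whether the counting used strand is not given in the sources used here. A transcribed pseudogene covers all 80811 bases of RSPO3, a long non-coding RNA covers 64201 bases of RSPO2, and ST7L shares 6652 bases with WNT2B, so reads of these pairs may not be separable.

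Barcodes were kept with more than 500 genes and 1000 transcripts and at most 20% mitochondrial transcripts, which left 20178 cells with a median of 2615 transcripts and 14228 nuclei with a median of 3890. The members gave 52601 transcripts in cells and 29297 in nuclei. Levels are transcripts of a gene per 10000 transcripts, summed over the barcodes of a group, and are compared only within a gene. Shares of barcodes with a transcript were taken after every barcode had been thinned to 1000 transcripts. Fewer than 1% of the kept barcode names, 99 in all, occurred in both libraries. Scrublet, a doublet caller, marked 0 barcodes in either library, which is taken as a failure of the caller, and no doublets were removed. In addition, 407 cells with more than 50000 transcripts held 28.5% of all transcripts in the cells library. First-round wells D12 and D6 of the cells library stood apart in make-up: D12 had 82.0% of its 557 cells and D6 74.8% of its 258 cells in the clusters described next, against a median of 4.57% over 48 wells. Shares and counts in cells that moved most without both wells are given also without them.

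Clusters were built with the 10 members left out of the variable genes, and were checked against 9 hem markers that include no member (MSX1, MSX2, BMP4, GDF7, BAMBI, ZIC1, ZIC2, ZIC4 and LMX1B). In 2 clusters of each library at least 5 of these 9 markers were raised. They are called hem-marked below, and the term is a rule and not a cell type, because choroid plexus markers were raised in the same clusters. The larger cell cluster (1313 cells) had all 9 hem markers and all 8 choroid plexus markers raised, and ABCA4, HTR2C and CLIC6 led its genes. The smaller (330 cells) had 9 hem and 4 choroid plexus markers raised, was led by PAX3 and BMP3, and took 63.0% of its cells from well D12. In both of these cell clusters 4 mesenchyme markers were raised as well. In nuclei the larger cluster (933 nuclei) had 6 hem and 7 choroid plexus markers raised and was led by RSPO2, LMX1A and PRTG, and the smaller (354 nuclei) had the same numbers raised and was led by genes of motile cilia such as CDC20B and TEKT1. Together they made up 8.14% (7.77 to 8.53) of cells and 9.05% (8.58 to 9.53) of nuclei, but 5.13% (4.82 to 5.45) of the 19363 cells outside wells D6 and D12.

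Most of the members had higher levels in these clusters, to very different degrees, while WNT2B in nuclei was lower in them (0.791-fold) and BMP6 was under 2-fold in both libraries. Of all member transcripts, 46.4% (46.0 to 46.9) in cells and 68.1% (67.6 to 68.7) in nuclei came from them, and in cells without wells D6 and D12 the share was 38.5%. In nuclei the share was 43.9% at Leiden resolution 2. The summed level was 13.8 in hem-marked cells against 2.02 in all other cells, and 19.1 against 1.51 in nuclei. At least 2-fold higher levels in hem-marked than in other barcodes were found for 9 of 10 members in cells and 8 of 10 in nuclei, beside 11.2% of 28471 genes in cells and 11.1% of 20150 genes in nuclei. Without D6 and D12, 7 of 10 remained above that fold in cells, as WNT2B came to 1.54-fold and WNT3A to 1.89-fold. With finer clusters (resolution 2), 6 of 10 remained in nuclei, as WNT8B came to 1.80-fold (1.04 to 2.98) and RSPO3 turned to 0.85-fold (0.733 to 0.980). At that resolution the nuclear folds given below for LMX1A, RSPO2, RSPO1 and WNT3A came to 20.1, 5.49, 5.05 and 5.24, since a cluster led by RSPO2 then no longer counted as hem-marked.

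**Figure D1:**
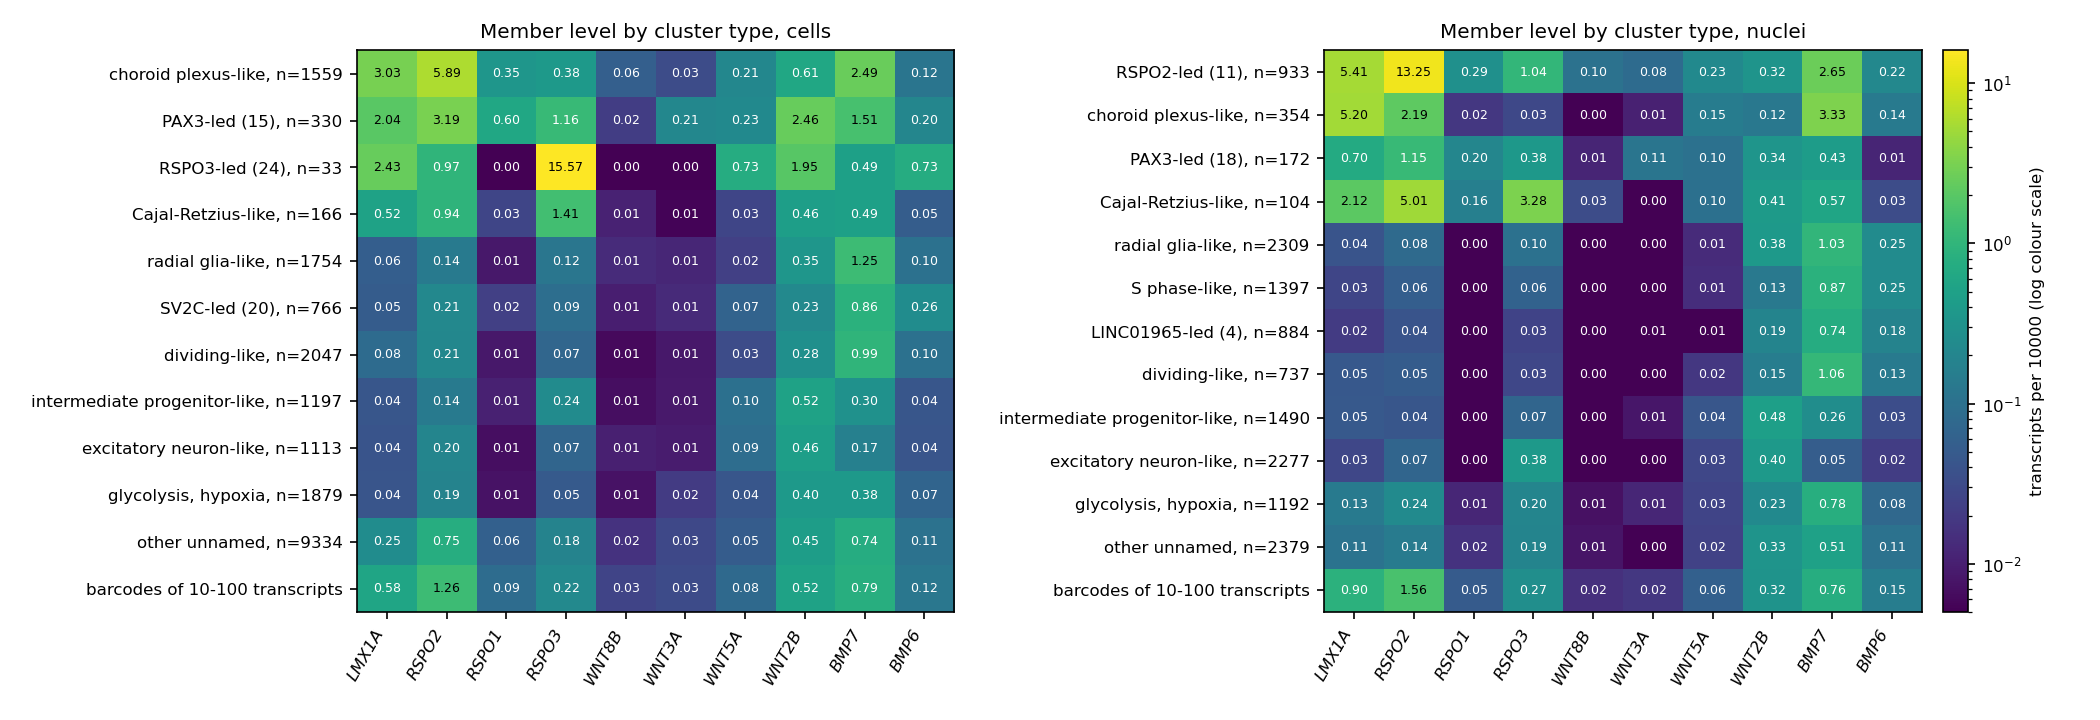
Level of each of the 10 genes (columns) in each group of barcodes, named by its markers or its leading gene (rows), in cells and in nuclei, in transcripts per 10000, with a bottom row for barcodes of 10 to 100 transcripts; colour is on a log scale. RSPO2 is highest in choroid plexus-like cells (5.89) and in the larger hem-marked cluster of nuclei (13.3), and RSPO3 is highest outside the hem-marked clusters, at 15.6 in 33 cells of 1 well and 3.28 in Cajal-Retzius-like nuclei. The choroid plexus-like row of 1559 cells includes the larger hem-marked cluster of 1313 cells. In nuclei the choroid plexus-like row is the smaller hem-marked cluster of 354 nuclei.

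LMX1A, the hem and roof plate transcription factor, had the largest ratio of hem-marked to other barcodes in cells and shared the largest with RSPO2 in nuclei. Its level was 3.02 (2.94 to 3.10) in hem-marked cells and 0.155 (0.148 to 0.162) in other cells, a 19.5-fold difference. In nuclei the levels were 5.34 (5.20 to 5.48) and 0.0865 (0.0793 to 0.0942), which is 61.7-fold. Hem-marked barcodes held 71.3% of its transcripts in cells and 91.3% in nuclei, and 74.6% in nuclei at resolution 2. In nuclei the interval, 56.4 to 67.5, overlapped that of RSPO2, 56.0 to 64.1, and RSPO2 had the higher ratio at resolution 0.5 (76.5 against 65.5). Across the 12 wells with at least 20 hem-marked cells, its level in hem-marked cells ran from 1.88 to 4.94 with a median of 2.67, and it was above the level in the other cells of the same well in all 12. In nuclei its hem-marked level ran from 3.61 to 10.0 over the 12 wells, and was again the higher in all 12.

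RSPO2, a secreted R-spondin, stood at 5.87 (5.76 to 5.99) in hem-marked cells against 0.434 (0.424 to 0.445) in the rest, or 13.5-fold. The nuclei gave 9.26 (9.07 to 9.44) against 0.155 (0.145 to 0.165), or 59.9-fold, with 91.0% of RSPO2 transcripts in hem-marked nuclei, and 44.5% at resolution 2. After thinning, 44.8% of hem-marked nuclei held an RSPO2 transcript and 44.6% an LMX1A transcript, whereas excitatory neuron-like nuclei, which should lack both genes, held them in 1.10% and 0.395%. The level varied over wells, from 1.60 to 11.8 in hem-marked cells and from 3.18 to 19.9 in hem-marked nuclei, and it was higher in hem-marked than in other barcodes in all 12 wells of each library.

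RSPO1, a second member of that family, was also concentrated there. Hem-marked cells had 0.424 (0.394 to 0.455) and other cells 0.0287 (0.0260 to 0.0317), a 14.7-fold difference. Hem-marked nuclei had 0.193 (0.167 to 0.221) and other nuclei 0.0102 (0.00784 to 0.0131), an 18.9-fold difference. Within hem-marked barcodes its spread over wells was wide, from 0.0137 to 0.779 in cells and from 0.0433 to 0.340 in nuclei, yet it was the higher there in all 12 wells of both libraries.

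RSPO3 had the broadest distribution of the R-spondins. Its level was 0.543 (0.509 to 0.578) in hem-marked cells and 0.151 (0.144 to 0.157) elsewhere, or 3.60-fold, and without D6 and D12 the ratio was 2.70-fold. In nuclei it was 0.675 (0.626 to 0.727) and 0.199 (0.188 to 0.210), or 3.40-fold. Over single wells RSPO3 was the higher in hem-marked barcodes in only 7 of 12 wells of cells, but in all 12 of nuclei. Its level in hem-marked cells ran from 0.0269 to 1.15 over the 12 wells, with a median of 0.278. At resolution 1 the largest levels were outside hem-marked clusters, while in nuclei a finer cluster led by RSPO2, described below, was higher still. In Cajal-Retzius-like clusters, which had all 6 Cajal-Retzius markers raised, RSPO3 reached 1.41 (1.24 to 1.59) in 166 cells and 3.28 (2.84 to 3.77) in 104 nuclei. Excitatory neuron-like nuclei carried 23.6% of all RSPO3 transcripts at a level of 0.377 (0.343 to 0.414), while excitatory neuron-like cells stood at 0.0699 (0.0556 to 0.0868). This nuclear signal was uneven, with 0.663 (0.599 to 0.732) in a cluster of 909 neurons led by MAL2 and CDH7 and 0.104 (0.0799 to 0.132) in a cluster of 1368 neurons led by KCNQ5 and SLC24A2. A further cluster of 33 cells, all from well C6, was led by RSPO3 among other genes and had a level of 15.6 (12 to 19.9), but its cells were shallow, with a median of 1165 transcripts. It had 4 of the 9 hem markers raised, fewer than the rule asks. The pseudogene on the opposite strand over all of RSPO3 had 4349 transcripts in cells and 2391 in nuclei, against 3067 and 1932 for RSPO3.

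The Cajal-Retzius-like nuclei also held RSPO2 at 5.01 (4.47 to 5.61) and LMX1A at 2.12 (1.77 to 2.52), above every other named group outside the hem-marked clusters. The corresponding cells had 0.944 (0.810 to 1.09) and 0.520 (0.422 to 0.635). In barcodes too small to be kept, taken here as free RNA, the cells library had RSPO2 at 1.26 and LMX1A at 0.580. RSPO2 in the Cajal-Retzius-like cells lay below that level and LMX1A did not rise above it. The part of free RNA in both was not tested. Small barcodes of the nuclei library had 1.56 and 0.898, below the levels in the Cajal-Retzius-like nuclei. BMP7 in the Cajal-Retzius-like nuclei was 0.572, close to the 0.590 of all nuclei that were not hem-marked.

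Among the WNT ligands, WNT8B and WNT3A, which signal through beta-catenin, were sparse, with 266 and 382 transcripts in cells and 96 and 90 in nuclei. WNT8B was 4.97-fold (3.84 to 6.39) higher in hem-marked cells and 16.8-fold higher in hem-marked nuclei, where it stood at 0.0680 (0.0531 to 0.0858) against 0.00405 (0.00262 to 0.00598). WNT3A was 3.30-fold (2.63 to 4.13) higher in hem-marked cells and 11.8-fold higher in hem-marked nuclei, with 0.0575 (0.0439 to 0.0740) against 0.00486 (0.00328 to 0.00694). An unnamed cluster of 1018 cells that was not hem-marked had WNT3A at 0.142 (0.113 to 0.177), above the 0.0636 of all hem-marked cells together. This unnamed cluster held 21.7% of WNT3A transcripts in cells. Between the hem-marked clusters of cells, the 330 cells led by PAX3 had WNT3A at 0.210 (0.160 to 0.271) and the larger cluster at 0.0361 (0.0271 to 0.0471). The direction of WNT8B and WNT3A did not hold in every well. WNT8B was higher in hem-marked barcodes in 10 of 12 wells of cells and 11 of 12 of nuclei, and WNT3A in 7 of 12 and 11 of 12.

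WNT5A, best known for signalling outside the beta-catenin route, was more regular than both. It was 0.227 (0.205 to 0.250) in hem-marked cells against 0.0531 (0.0493 to 0.0571) in other cells, and 0.202 (0.176 to 0.231) against 0.0245 (0.0207 to 0.0287) in nuclei, 4.27-fold and 8.26-fold. It was the higher in hem-marked barcodes in all 12 wells of each library.

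WNT2B, by contrast, was spread over nearly every group. In nuclei its level was 0.250 (0.221 to 0.282) in hem-marked barcodes and 0.316 (0.302 to 0.330) in the rest, a ratio of 0.79, with 0.482 in intermediate progenitor-like nuclei, 0.396 in excitatory neuron-like nuclei and 0.132 in S phase-like nuclei. In cells the ratio was 2.26-fold, and hem-marked cells of wells D6 and D12 had 1.64 against 0.628 in the hem-marked cells of all other wells. The higher level of this pair lay in D12, at 2.09, while D6 stood at 0.651. The PAX3-led cluster of 330 cells had 2.46 (2.28 to 2.65). Over single wells it was the higher in hem-marked barcodes in 7 of 12 wells of cells and 4 of 12 of nuclei. Its levels in barcodes of 10 to 100 transcripts, taken here as free RNA, were 0.522 (0.498 to 0.547) in cells and 0.321 (0.279 to 0.367) in nuclei. Low levels, such as 0.350 (0.319 to 0.384) in radial glia-like cells, did not rise above that background, and the part of free RNA in them was not tested. ST7L, on the opposite strand over part of WNT2B, had 11627 transcripts in cells and 5964 in nuclei.

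The BMP ligands differed from each other. BMP7 was 2.49 (2.42 to 2.56) in hem-marked cells and 0.663 (0.650 to 0.677) in other cells, and 2.90 (2.79 to 3.00) against 0.590 (0.571 to 0.609) in nuclei, 3.75-fold and 4.91-fold. It also reached 1.03 (0.967 to 1.10) in radial glia-like nuclei, of which 2 of 3 clusters were led by stress-response genes such as FOS and ATF3, and 0.868 (0.800 to 0.939) in S phase-like nuclei, and was lowest of these in excitatory neuron-like nuclei at 0.0546 (0.0422 to 0.0695). BMP6 was 1.47-fold higher in hem-marked cells and 1.52-fold higher in hem-marked nuclei and did not reach the 2-fold limit in either. Without D6 and D12 its ratio in cells was 1.16 (0.963 to 1.38). In cells its hem-marked level, 0.136 (0.120 to 0.155), lay below the 0.257 (0.218 to 0.300) of an unnamed cluster of 766 cells led by SV2C and KANK4 and above the 0.0438 (0.0321 to 0.0584) of intermediate progenitor-like cells. Radial glia-like and dividing cells had 0.101 and 0.103. In nuclei the hem-marked level, 0.188 (0.162 to 0.216), overlapped in its interval with radial glia-like nuclei at 0.245 (0.215 to 0.279), S phase-like nuclei at 0.248 (0.212 to 0.287) and dividing nuclei at 0.134 (0.102 to 0.173). Intermediate progenitor-like and excitatory neuron-like nuclei had 0.0337 and 0.0215. In the small barcodes taken as free RNA, BMP6 stood at 0.121 (0.110 to 0.134) in cells and 0.154 (0.126 to 0.187) in nuclei. The hem-marked intervals of BMP6 overlapped these in both libraries, and the part of free RNA in its levels was not tested. BMP7 was the higher in hem-marked barcodes in all 12 wells of both libraries, and BMP6 in 5 of 12 wells of cells and 9 of 12 of nuclei.

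The hem-marked barcodes were themselves not uniform. Between the 2 hem-marked clusters of nuclei, RSPO2 was 13.3 (13.0 to 13.5) in the larger and 2.19 (2.05 to 2.35) in the ciliated one, and RSPO3 was 1.04 (0.965 to 1.12) and 0.0292 (0.0146 to 0.0522). LMX1A hardly differed, at 5.41 (5.24 to 5.59) and 5.20 (4.97 to 5.44), and BMP7 was 2.65 (2.52 to 2.77) and 3.33 (3.15 to 3.52). WNT8B had 70 of its 96 nuclear transcripts in the larger cluster and 1 in the ciliated one.

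Cells also held 2 small choroid plexus-like clusters with few hem markers raised, 133 cells (0 of 9 hem and 5 of 8 choroid plexus markers, 73.7% from well A8) and 113 cells (1 of 9 and 8 of 8, 93.8% from A8). RSPO2 was 2.71 (2.30 to 3.18) and 1.3 (1.10 to 1.52) in them, against 6.38 (6.25 to 6.50) in the hem-marked cluster of 1313 cells. LMX1A was 0.939 (0.704 to 1.23) and 1.84 (1.61 to 2.10) against 3.2 (3.11 to 3.29), and BMP7 was 1.05 (0.796 to 1.35) and 0.883 (0.722 to 1.07) against 2.67 (2.59 to 2.76). Within well A8 alone, its 28 hem-marked cells had RSPO2 at 5.44 (4.92 to 6) and BMP7 at 2.31 (1.97 to 2.68), above the 2.51 and 1.34 of RSPO2 and the 1.05 and 0.873 of BMP7 in the A8 cells of the 2 small clusters. LMX1A in A8 was 1.88 (1.58 to 2.23) in hem-marked cells, above the 0.972 (0.721 to 1.28) of the first small cluster and close to the 1.84 (1.60 to 2.11) of the second.

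Finer clustering (resolution 2) separated these patterns further. A cluster of 277 nuclei led by RSPO2, with RSPO1 and RSPO3 among its 10 leading genes, had RSPO2 at 43.5 (42.3 to 44.7), RSPO3 at 4.34 (3.97 to 4.75), LMX1A at 8.93 (8.38 to 9.50) and WNT8B at 0.453 (0.337 to 0.596). These 277 of 14228 nuclei held 46.1% of RSPO2, 53.1% of WNT8B, 33.7% of RSPO1 and 25.3% of RSPO3 transcripts, but 5.28% of BMP7 and 1.57% of BMP6. After thinning, 87.0% of these nuclei had an RSPO2 transcript and 26.4% an RSPO3 transcript. Only 2 of 9 hem markers and 2 of 8 choroid plexus markers were raised in it, BMP4 was not detected among its 1125726 transcripts, and TTR and CLIC6 were at 0.844 and 0.169, so it met no naming rule. WLS, needed for WNT secretion, was at 7.16 in it and SOX2 at 1.41.

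The other fine clusters each had another balance. A choroid plexus-like cluster of 562 nuclei had RSPO2 at 7.19 (6.96 to 7.43), LMX1A at 4.50 (4.32 to 4.69) and RSPO3 at 0.230 (0.190 to 0.276). The ciliated cluster of 338 nuclei had LMX1A at 5.13 (4.90 to 5.37) and BMP7 at 3.31 (3.13 to 3.50) with RSPO3 at 0.0301 (0.0150 to 0.0539). A cluster of 94 nuclei led by COL3A1 and COL1A1, with GDF7 at 1.23, had the highest WNT3A of the 4, 0.276 (0.158 to 0.449), and LMX1A at 7.76 (7.06 to 8.51). In cells, the fine cluster of 837 cells led by RSPO2 had 9.41 (9.22 to 9.61) RSPO2 and the ciliated cluster of 493 cells 1.56 (1.46 to 1.66), while LMX1A was 3.22 and 2.90 and BMP7 2.65 and 2.55. Since RSPO2 is the leading gene of 1 cluster in each library, its difference from the ciliated cluster follows from the choice of clusters.

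**Figure D2:**
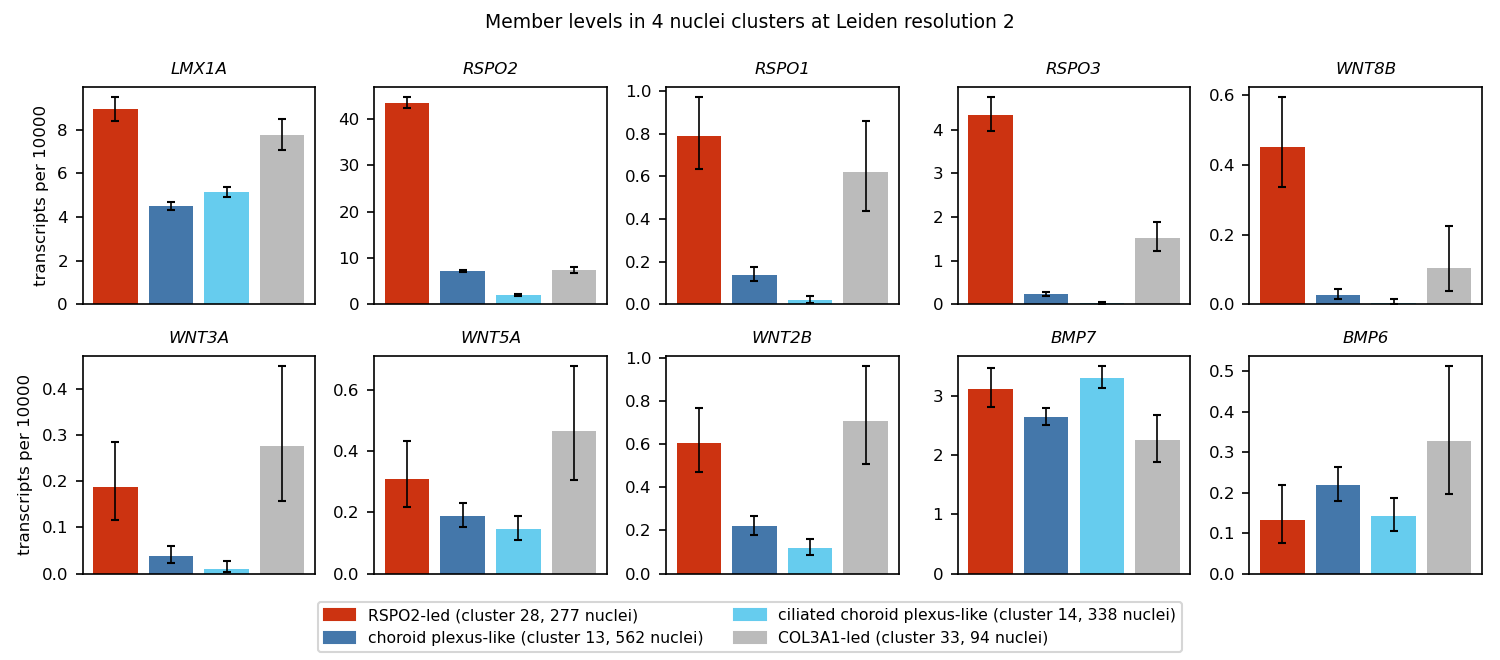
Level of the 10 genes, in transcripts per 10000 on a linear axis for each gene, in 4 fine clusters of nuclei, with error bars for the exact 95% Poisson interval of the count. The cluster of 277 nuclei led by RSPO2 is highest for RSPO2 (43.5), RSPO3 (4.34) and WNT8B (0.453), and the 4 clusters lie close together for BMP7, between 2.26 and 3.31.

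Co-detection in single barcodes was then read inside hem-marked barcodes, after thinning, so that depth was equal. RSPO3 was found in 14.5% (6.86 to 25.8, 9 of 62) of RSPO1-positive cells and in 4.43% (3.47 to 5.56) of RSPO1-negative cells. The nuclei gave 30.3% (15.6 to 48.7, 10 of 33) and 6.86% (5.52 to 8.40). RSPO2 was found in 59.5% (47.8 to 70.4) of RSPO3-positive and 27.7% (25.5 to 29.98) of RSPO3-negative cells, and in 86.5% (78 to 92.6) and 41.5% (38.7 to 44.3) of the nuclei. RSPO2 was also found in 58.1% (44.9 to 70.5) of RSPO1-positive and 28.1% (25.9 to 30.4) of RSPO1-negative cells, and in 81.8% (64.5 to 93) and 43.9% (41.1 to 46.7) of nuclei. In these 3 pairs of R-spondins the second gene was the more frequent where the first was present in both libraries, and the intervals did not meet. Positive and negative barcodes came in unequal parts from clusters and wells. In nuclei all RSPO1-positive and RSPO3-positive barcodes lay in the larger cluster, where the 3 pairs gave 30.3% against 9.56%, 86.5% against 50.4% and 81.8% against 53.1%, in the order above. The larger cell cluster gave 14.9% (6.20 to 28.3) against 3.16%, 85.1% against 29.1% and 68.1% against 29.7%. In the cluster led by PAX3, by contrast, RSPO2 was in 21.9% (9.28 to 40) of RSPO3-positive and 21.8% of RSPO3-negative cells, and all 3 pairs had overlapping intervals. Without D6 and D12 the shares in cells were 13.6% against 2.63%, 74.2% against 30.2% and 70.5% against 29.8%.

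BMP7 did not share this pattern. It was present in 15.2% (8.10 to 25) of RSPO3-positive and 18.9% (17 to 21) of RSPO3-negative cells (25.8% and 20.1% without D6 and D12), and in 14.6% (8.21 to 23.3) and 26.5% (24 to 29.1) of nuclei. Inside the larger cluster of nuclei the shares were 14.6% against 25.6% (22.6 to 28.7), and the intervals overlapped. The larger cell cluster gave 19.1% against 20.0%. With RSPO2, over all hem-marked barcodes again, the shares were 21.5% (17.9 to 25.4) against 17.6% (15.5 to 19.9) in cells and 27.7% (24.1 to 31.6) against 23.9% (20.9 to 27.3) in nuclei, and these intervals overlapped. LMX1A was found in 28.3% of RSPO2-positive and 21.7% of RSPO2-negative cells, and in 49.6% and 40.6% of nuclei.

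WNT8B was too rare for thinned counts, with 9 positive hem-marked barcodes in each library, of which RSPO2 was in 8 cells and 9 nuclei. Without thinning, RSPO1 was in 53.8% (37.2 to 69.9) of 39 WNT8B-positive nuclei and 7.37% (5.98 to 8.96) of the others, and RSPO3 in 66.7% (49.8 to 80.9) and 16.3% (14.3 to 18.4). Depth was close in these nuclei, with medians of 5998 and 5698 transcripts. The hem-marked clusters were pooled here, although WNT8B and RSPO3 differed between them, and the part of cluster make-up was not tested. In cells the unthinned shares were 56.1% and 12.6% for RSPO1 and 62.1% and 17.2% for RSPO3, but WNT8B-positive cells were deeper, with a median of 12888 transcripts against 5960.

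Over all barcodes, 21.1% (20.6 to 21.7) of cells and 18.5% (17.9 to 19.1) of nuclei held at least 1 member transcript after thinning. Of these, 17% (15.9 to 18.1) of cells and 22.9% (21.4 to 24.6) of nuclei held 2 or more members. In cells outside wells D6 and D12 the shares were 19.6% and 14.7%. In hem-marked barcodes 61.2% of cells and 76.5% of nuclei held a member, and 38.9% and 52.4% of those held 2 or more. The other barcodes gave 17.6% and 12.7%, of which 10.2% and 5.34% held 2 or more. At most 5 members were found in 1 thinned cell and 7 in 1 thinned nucleus. The summed member level in barcodes of 10 to 100 transcripts was 3.73 in cells and 4.11 in nuclei, close to the 3.34 and 4.06 of all kept barcodes. It was above the 2.02 and 1.51 of kept barcodes outside hem-marked clusters, and the part of free RNA in their low shares was not tested.

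Wells of the cells library differed widely. In cells the summed member level ran from 1.2 to 14.3 over 48 wells with a median of 3.31, and was highest in D12. Well D12 gave 11.1% of all member transcripts and C6 9.83%, against a median of 1.09%. For RSPO3 the 2 wells together gave 39.3%, with 23.6% from C6 and 15.7% from D12. LMX1A ranged from 0 to 2.89, RSPO2 from 0.0830 to 5.43 and BMP7 from 0.362 to 1.85, and D12 was highest for all 3. WNT8B was not detected in 7 of 48 wells and RSPO1 in 6.

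In nuclei the range was narrower, from 2.60 to 7.90 over 12 wells, with hem-marked shares of 6.37% to 16.8%. RSPO2 ran from 0.444 to 3.88 and LMX1A from 0.610 to 1.64. WNT2B was highest in wells A12 (0.563) and A11 (0.529), against a median of 0.234. WNT8B in well A1, at 0.0727 from 7 transcripts, was above the next well at 0.0202. The 8 sub-libraries of cells, a technical split after barcoding, ranged from 2.91 to 3.76 in summed level, and the 2 of nuclei from 4.05 to 4.07.

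**Figure D3:**
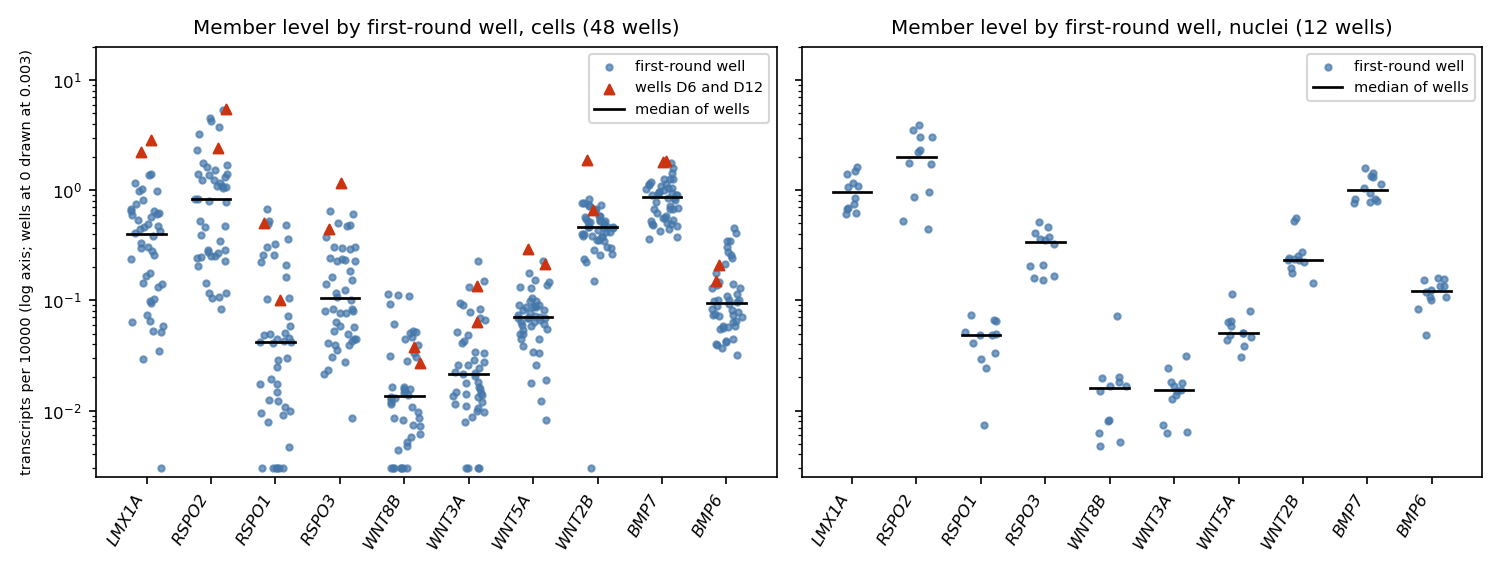
Level of each gene in every first-round well (1 point a well, 48 for cells and 12 for nuclei), in transcripts per 10000 on a log axis, with the median as a line. RSPO2 spans 0.0830 to 5.43 over wells of cells and 0.444 to 3.88 over wells of nuclei, whereas BMP7 spans 0.362 to 1.85 and 0.759 to 1.58.

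Nuclei and whole cells did not give the members alike. The ratio of summed levels, nuclei over cells, was 1.21 (1.2 to 1.23) and compares 2 libraries that also differ in the organoids pooled. LMX1A had the highest ratio, 1.77 (1.71 to 1.83), followed by RSPO2 at 1.40 (1.37 to 1.44), RSPO3 at 1.37 (1.3 to 1.45), BMP6 at 1.36 (1.25 to 1.47) and BMP7 at 1.06 (1.03 to 1.09). The intervals of RSPO2, RSPO3 and BMP6 overlapped. Below 1 were WNT8B at 0.787 (0.616 to 0.997), WNT5A at 0.690 (0.611 to 0.777), WNT2B at 0.655 (0.624 to 0.687), WNT3A at 0.514 (0.404 to 0.648) and RSPO1 at 0.499 (0.435 to 0.571). The median over 29474 genes was 0.685, so the first 5 lay above the middle of all genes and RSPO1 and WNT3A below it. RSPO1 was the only member past 2-fold in either direction, with an interval that spans the limit, and without D6 and D12 it came to 0.597 (0.518 to 0.685) and LMX1A to 2.16 (2.09 to 2.24). These counts stood beside 33.5% of genes at least 2-fold lower and 0.502% at least 2-fold higher in nuclei. The 5 members with ratios above 1 were also the 5 longest genes, 80811 to 184327 bases against 20736 to 63625, and the part of gene length was not tested.

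**Figure D4:**
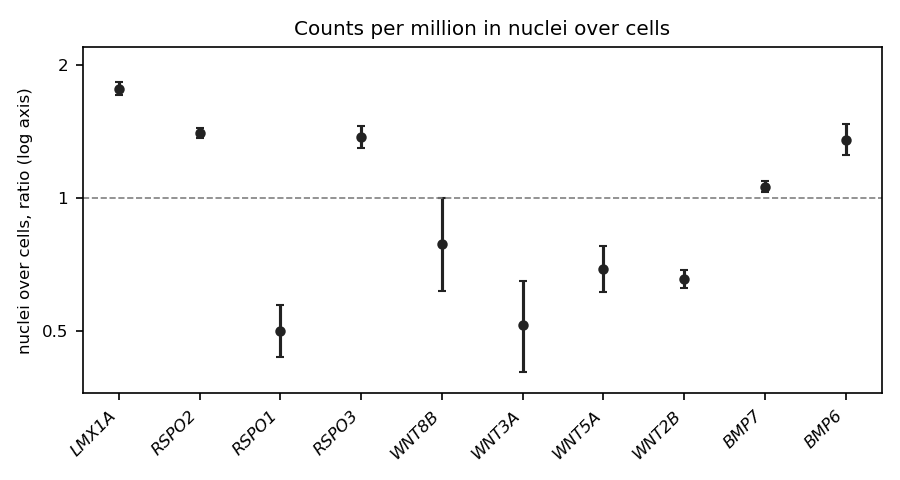
Ratio of the level in nuclei to the level in cells for each gene, on a log axis, with exact 95% intervals and a dashed line where both levels are equal. The genes run from RSPO1 at 0.499 to LMX1A at 1.77.

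The genes whose levels followed each member most closely over the 25 clusters of cells and 19 of nuclei are given with the lower of the 2 Pearson coefficients, as a description, among 14791 genes with at least 200 transcripts in both libraries. Clusters of a library share its preparation and differ in depth. LMX1A went with OTX2-AS1 (0.92), PRTG (0.92) and MAF (0.87). RSPO2 went with IRS4 (0.86), OTX2 (0.86), which encodes a homeobox factor of choroid plexus and midline, and OTX2-AS1 (0.83). BMP7 went with ANXA5 (0.91), FKBP10 (0.89) and KIF13A (0.89), and BMP6 with PCSK6 (0.84), a proprotein convertase, MSRB3 (0.79) and PTPN3 (0.77).

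For the other members the first-ranked gene had a lower coefficient. RSPO1 was closest to LRP2 (0.78), WNT8B to RSPO1 (0.76), WNT3A to CTNNA3 (0.78), WNT5A to MYH9 (0.75) and to the WNT inhibitor DKK2 (0.71), and RSPO3 to SEMA6A (0.69). WNT3A and WNT8B themselves had fewer than 200 transcripts in nuclei.

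The other genes of the WNT and BMP pathways were taken from listed families, without the members and without the hem markers, and only if they had at least 50 transcripts. Of the other WNT ligands, 5 of 12 were at least 2-fold higher and 1 lower in hem-marked cells, and 2 of 8 were higher and 2 lower in nuclei. Without D6 and D12, 4 of 12 were higher in cells. WNT9A was 6.42-fold (5.67 to 7.28) and 9.71-fold (8.15 to 11.6) higher in cells and nuclei, and WNT11 8.65-fold (6.53 to 11.5) and 39.2-fold (18.5 to 95.4). WNT4 was 5.95-fold higher in cells, 1.49-fold (1.03 to 2.10) without D6 and D12, and 0.493-fold in nuclei, where it had 8 hem-marked transcripts. WNT7A, named after its value was seen, was the other lower gene, at 0.201-fold (0.134 to 0.290) in cells and 0.309-fold in nuclei. WNT5B, the WNT gene with most transcripts there, was 1.01-fold and 1.26-fold. WLS, which carries WNT proteins to the membrane, was 15.6-fold (15 to 16.2) and 12.7-fold (12 to 13.4) higher.

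Of 20 receptor genes in cells, 7 were at least 2-fold higher and 0 lower, and of 16 in nuclei 4 were higher and 0 lower. ROR2, a receptor for WNT5A, was 3.97-fold (3.86 to 4.08) and 5.75-fold (5.56 to 5.94) higher. LGR4, an R-spondin receptor, was 5.87-fold (5.43 to 6.34) and 5.02-fold (4.53 to 5.57) higher. FZD10 was 26.1-fold higher in cells from 93 hem-marked transcripts and had 10 transcripts in all nuclei. Without D6 and D12, 5 of 19 receptors were higher in cells. FZD10 then was 5.95-fold (2.87 to 11.8) higher from 14 hem-marked and 26 other transcripts, too few to be counted in that list.

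WNT inhibitors differed in both directions, with 4 of 10 higher and 1 lower in cells and 2 of 9 higher and 2 lower in nuclei. DKK2 was 13.5-fold and 18.8-fold higher and WIF1 13.0-fold and 19.0-fold higher, while SFRP1 was 0.456-fold and 0.390-fold. Without D6 and D12, 3 of 10 inhibitors were higher and 1 lower in cells, with WIF1 at 4.82-fold (4 to 5.80) and SFRP1 at 0.505-fold. The lower one was then SFRP2 at 0.398-fold (0.234 to 0.636), named here after its value was seen. Targets and effectors gave 4 of 10 higher and 0 lower in cells and 2 of 9 higher and 2 lower in nuclei, with TCF7 at 5.83-fold and 13.7-fold and NKD1, an inhibitor induced by WNT, at 5.54-fold and 4.01-fold. The genes lower in nuclei were LEF1, a transcription factor that acts with beta-catenin, at 0.466-fold (0.437 to 0.495) and TNFRSF19 at 0.414-fold, against 0.526-fold and 0.598-fold in cells, named after their values were seen. In cells without D6 and D12 this list gave 3 of 9 higher and 2 lower, LEF1 at 0.471-fold and TNFRSF19 at 0.497-fold.

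Of the other BMP ligands, 3 of 7 were higher in cells and 1 of 4 in nuclei, with 0 lower in both. In cells 2 of 7 were higher without D6 and D12. BMP3 was 19.7-fold (15.1 to 26.0) higher in hem-marked cells, but 1.77-fold (0.875 to 3.28) from 12 hem-marked transcripts without these wells, and BMP2 was 10.2-fold (6.81 to 15.5) higher in hem-marked nuclei. Of 6 BMP receptors, 0 were higher and 2 lower in each library. BMPR2 was 0.616-fold and 0.676-fold, BMPR1A 0.752-fold and 0.757-fold, and ACVR1 1.06-fold and 1.48-fold. The 2 lower receptors, named after their values were seen, were ACVR2A at 0.263-fold (0.250 to 0.278) and 0.376-fold, and BMPR1B at 0.425-fold and 0.426-fold. Among BMP inhibitors 4 of 9 were higher and 2 lower in cells and 2 of 9 higher and 3 lower in nuclei, with NOG at 2.54-fold and 2.17-fold and CHRDL1 at 0.244-fold and 0.257-fold. The inhibitors gave 4 of 9 higher and 3 lower in cells without D6 and D12. Among BMP targets 3 of 7 were higher and 1 lower in cells and 4 of 7 higher and 1 lower in nuclei. SMAD6, an inhibitory SMAD that BMP induces, was 5.22-fold (4.85 to 5.61) and 6.45-fold (5.90 to 7.05) higher, and ID4 was 0.480-fold and 0.371-fold. These counts stood beside backgrounds of 9.8% lower in cells and 11.8% lower in nuclei and the shares higher given above, and the median log2 ratio of all genes was -0.07 in cells and -0.12 in nuclei.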

How the data were processed

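Single cells and single nuclei of H9 brain organoids were barcoded by split-pool ligation (Evercode). According to the study's methods the authors demultiplexed reads with demuxFQ and aligned and counted them with spipe against GRCh38. The deposited counts are whole transcript counts per barcode and gene, not normalized and not filtered. How strand was used and how reads within introns were counted are not given in the sources used here. Both libraries hold 62704 genes. The cells library had 1303455 barcodes in 48 first-round wells and 8 sub-libraries, and the nuclei library 197446 barcodes in 12 wells and 2 sub-libraries. Kept barcodes summed to 157306492 and 72162726 transcripts.

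From these counts, a barcode was kept in Python 3.11.15 if it had over 500 genes, over 1000 transcripts and no more than 20% of them mitochondrial. Clusters came from scanpy 1.11.5 (2000 variable genes without the members, 30 components, 15 neighbours, Leiden resolution 1) and were named by lists of markers, of which the larger part and at least 3 had to be 1.5-fold higher and present in 5% of the cluster. Clusters whose leading genes were judged to go against the name stayed unnamed, 2 of them by a decision made after the values were seen. Scrublet, run within scanpy, gave the doublet scores. Thinning drew 1000 transcripts a barcode without replacement. Intervals are exact (Clopper-Pearson for shares, Poisson for levels, conditional binomial for ratios, 95%), and a fold is called at 2. To call a fold, a count under 3 on either side was set to 3. Barcodes of 10 to 100 transcripts stood for free RNA. Promoter windows are from RefSeq, and 8 of 10 members matched. Named genes are the members, the 3 genes most like each and, per pathway list, the 3 with most transcripts and the 3 of largest fold in hem-marked barcodes. Some results are not reported here.

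Members, markers and pathway lists were chosen with earlier results of these data known. With 1 sample a library, no test between groups was run. Scripts for shares and ratios were tested on simulated data. Fine clusters, wells, depth, thinning, mitochondrial and doublet limits were varied, and 2 alternatives (without wells D6 and D12, and without barcodes over 50000 transcripts), the values within well A8 and the repeats of the folds were added after the data were seen.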

Additional observations from a re-analysis of the deposited data

Results flagged for a closer look

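The 10 genes were also present in barcodes that were too small to be kept. These entered no cluster, share or fold, and served above only as a level of free RNA. In barcodes of 10 to 100 transcripts their summed level was 3.73 transcripts per 10000 (3.66 to 3.79, 12805 transcripts) in the cells library and 4.11 (3.95 to 4.27, 2690 transcripts) in the nuclei library. No empty control was analysed here, so these values have no reference level. RSPO2 stood at 1.26 in these small barcodes of cells and 1.56 in those of nuclei, and LMX1A at 0.580 and 0.898.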

How the results depend on the processing

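No paired analysis was possible because each library is 1 sample. The ratio of nuclei to cells stayed above 1 in its alternatives, while shares have no direction. Among single genes RSPO3 in nuclei turned from 3.40-fold to 0.85-fold at resolution 2. Moves beyond the counting interval follow, and their cause was not tested unless the alternative's construction shows it. The share of cells with a member (21.1%) was 20.4% at a 10% mitochondrial limit, 20.0% without the well with most member transcripts, 19.6% without D6 and D12, 47.2% without thinning and 34.2% at 2000 transcripts. In nuclei it was 41.4% without thinning and 28.2% at 2000. The share with 2 or more members in cells (17%) was 15.2% without the top well, 14.7% without D6 and D12, 43.5% without thinning and 25.1% at 2000, and in nuclei 34.4% and 26.1%. The hem-marked share of member transcripts in cells (46.4%) was 47.1% without the highest doublet scores, 40.3% without the top well, 53.0% without barcodes over 50000 transcripts, 38.5% without D6 and D12, 49.1% over 3000 transcripts, 47.5% and 48.1% at resolutions 0.5 and 2, and 48.9% with members among the variable genes. In nuclei (68.1%) it was 67.3% without the top well, 69.4% over 3000 transcripts, 68.9% at resolution 0.5 and 43.9% at resolution 2, where the cluster led by RSPO2 had too few hem markers to count. The top well's share in cells (11.1%) was 11.6% under the mitochondrial limit and again 11.6% without the highest doublet scores, 14.4% without deep barcodes, and 8.37% by barcodes. The ratio of nuclei to cells (1.21) was 1.29 under the mitochondrial limit, 1.40 without the top wells, 1.14 without deep barcodes and 1.36 without D6 and D12.

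WNT8B and WNT3A had under 400 transcripts in cells and under 100 in nuclei, which limits the precision of their values. Conditions cannot be told apart, and the part of free RNA in low levels was not tested.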
